A study of Mus musculus with 18 samples.

Results

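The genes of oxidative phosphorylation were followed across 18 RNA-seq libraries of mouse double negative T cells, T cells that carry neither CD4 nor CD8. Protein-coding genes were taken as members when their symbols began with mt-Nd, mt-Co, mt-Cytb, mt-Atp, Nduf, Sdha to Sdhd, Uqcr, Cox4 to Cox8 or Atp5. The rule found 110 members among the 52506 genes listed in all 3 count tables, 13 of them encoded in mitochondrial DNA and 97 in the nucleus. A further annotated gene met the rule, and its ID, the second for Atp5o, was not in the tables. The rule itself used no measured value. The rule also caught 14 nuclear genes for assembly and regulatory factors, such as Ndufaf4 and Cox7a2l, which are given apart from the subunits.

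All libraries came from wild type double negative cells converted from CD4+ T cells of spleen and lymph node and stimulated with antibodies to CD3 and CD28. They form 3 sets of 6, each in a table of its own, with 3 libraries in each of 6 groups. In set 1, WTATPgs cells had received 400 µM ATPgs, an ATP analogue that is hydrolysed only poorly, for 6 h, and WT cells had not. In set 2, ADO cells had received 400 µM adenosine for 6 h and DNT cells had not. In set 3, all cells had been given an A2aR inhibitor, which blocks the A2a type of adenosine receptor, at 250 nM. RA cells of this set had also received 400 µM adenosine for 6 h, and R cells had not. Age, sex and strain were not given in the labels used here, and nothing in them ties a library to its own mouse or culture, so the tests weigh differences against the spread of libraries, which may be technical.

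Oxidative phosphorylation passes electrons from NADH and succinate through complexes I to IV of the inner mitochondrial membrane to oxygen, and the proton gradient built on the way drives complex V, the ATP synthase. Complexes I, III, IV and V are assembled from subunits of both genomes, while all subunits of complex II are nuclear. Both strands of mitochondrial DNA are transcribed as long precursors from which the mRNAs are cut out, so the mature mRNAs can also differ in level through processing and decay. Activated T cells are known for strong aerobic glycolysis and also raise mitochondrial mass and respiration as they divide.

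The sequences below show a limit on which mitochondrially encoded members can be read from these tables. A stretch of mouse chromosome 1 holds unprocessed pseudogenes, copies of mitochondrial DNA, that run from 24611535 to 24616197 of GRCm38 on the minus strand. In it, Gm28661, Gm10925, Gm28437 and Gm10222 matched mt-Co2, mt-Atp6, mt-Co3 and mt-Nd4l with 0 mismatches over 681, 678, 783 and 294 bases, and Gm28439 matched the first 876 bases of mt-Nd4 with 0 mismatches. Gm28438 differed from mt-Nd3 at 1 of 345 bases and Gm29216 from the last 492 bases of mt-Co1 at 6. The first 40 bases of each of these copies are given with the mitochondrial bases they align to, 5′ to 3′, and capitals mark the mismatches, all of which lie in these windows.
mt-Nd3, chrM:9459-9498, plus strand: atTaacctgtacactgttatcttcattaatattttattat
Gm28438, chr1:24613080-24613119, minus strand: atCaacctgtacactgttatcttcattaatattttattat
mt-Co1, chrM:6381-6420, plus strand: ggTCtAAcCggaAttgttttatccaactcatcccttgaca
Gm29216, chr1:24616158-24616197, minus strand: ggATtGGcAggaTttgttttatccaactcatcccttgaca
Outside these bases a read from the copied part of either gene has no letter that tells it from its copy. Of the 13 genes, 6 lie wholly opposite or within the copied stretch (mt-Co2, mt-Atp8, mt-Atp6, mt-Co3, mt-Nd3 and mt-Nd4l), and their counts were low. Per kb of gene, they had 0.209 to 62.2 CPM (counts scaled to a common library size) in WTATPgs and 0.150 to 42.9 CPM in WT, while the other 7 had 321 to 6365 CPM per kb in WTATPgs and 306 to 5893 in WT. The sum over the other 7 was 127 times that over the 6 in WTATPgs, 157 times in WT, 261 times in ADO, 244 times in DNT, 88.4 times in RA and 94.0 times in R. The copy of mt-Atp6 held 336% of the counts of the gene itself in WTATPgs and 341% in WT. How reads with more than 1 possible origin were counted is not given in the sources used here. Values of these 6 genes are therefore uncertain. For mt-Atp8 no annotated copy was aligned, 0% of its 50-base words occur in other annotated genes, and the chromosome 1 sequence opposite it was not read. Of mt-Nd1, mt-Nd2, mt-Nd5, mt-Nd6 and mt-Cytb, at most 8.19% of the 50-base words occur in other annotated genes, against 51.1% for mt-Co1 and 62.2% for mt-Nd4. Only mt-Nd5 and mt-Nd6 of those 5 overlap each other, on opposite strands, and without a stated strand in the counting reads from the overlap cannot be told apart.

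**Figure D1:**
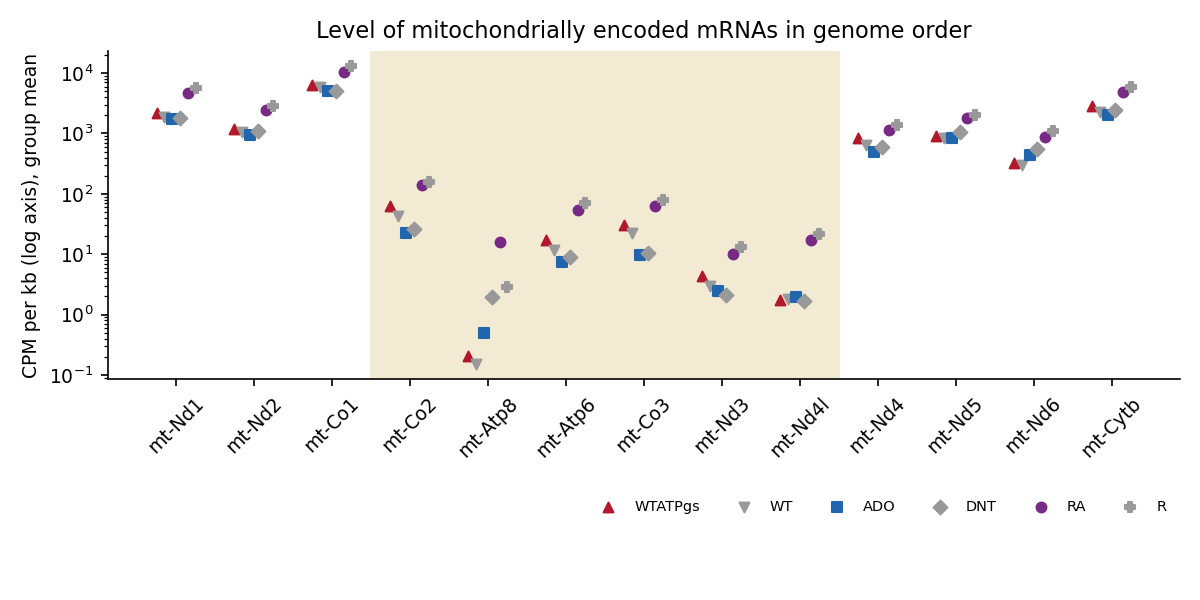
Level of the 13 mitochondrially encoded mRNAs in genome order (horizontal axis) as the group mean of CPM per kb of gene (vertical axis, log scale), 3 libraries per group and 1 marker per group. The 6 genes in the shaded band, opposite the copied stretch of chromosome 1, sit between 0.150 and 158 CPM per kb in all groups, below the other 7.

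Promoter sequence was matched by symbol for 78 of the 97 nuclear members in RefSeq sequences of GRCm38.p6, as 250 bases before and 50 after each gene start. The motif GCGCA, any base and then GCGC, read on either strand, is the core of the sequence bound by nuclear respiratory factor 1 (a transcription factor known for binding promoters of respiratory chain genes). It was present in 21 of the 78, or 26.9%, and in 1402 of all 27025 promoters in the table, or 5.19%. A match describes these letters and not a bound site. The promoters of 4 members that passed a test below are shown, 5′ to 3′ on the strand of the gene, with the matches in capitals. Sdha, with 3 matches, and Sdhd rose with adenosine, Ndufaf4 fell with both ligands, and Atp5g3 fell with ATPgs.
Sdha, chr13:74350191-74350490, minus strand: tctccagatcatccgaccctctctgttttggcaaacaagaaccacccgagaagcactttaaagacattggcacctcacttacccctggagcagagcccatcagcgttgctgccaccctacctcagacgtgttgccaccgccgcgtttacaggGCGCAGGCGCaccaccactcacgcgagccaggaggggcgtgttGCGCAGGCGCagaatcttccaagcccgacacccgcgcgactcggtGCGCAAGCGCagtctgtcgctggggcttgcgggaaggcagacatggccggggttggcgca
Sdhd, chr9:50603800-50604099, minus strand: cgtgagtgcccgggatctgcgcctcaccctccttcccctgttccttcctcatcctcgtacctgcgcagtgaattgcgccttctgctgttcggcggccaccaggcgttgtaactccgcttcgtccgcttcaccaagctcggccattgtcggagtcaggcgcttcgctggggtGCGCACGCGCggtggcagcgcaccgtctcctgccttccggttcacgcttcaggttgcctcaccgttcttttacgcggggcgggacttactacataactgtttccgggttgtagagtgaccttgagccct
Ndufaf4, chr4:24897833-24898132, plus strand: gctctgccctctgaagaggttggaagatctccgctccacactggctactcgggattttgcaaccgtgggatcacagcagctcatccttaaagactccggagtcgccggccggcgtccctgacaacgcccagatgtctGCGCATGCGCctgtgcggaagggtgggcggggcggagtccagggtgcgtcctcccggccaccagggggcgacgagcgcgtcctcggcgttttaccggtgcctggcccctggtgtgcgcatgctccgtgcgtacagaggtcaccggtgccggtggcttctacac
Atp5g3, chr2:73911277-73911576, minus strand: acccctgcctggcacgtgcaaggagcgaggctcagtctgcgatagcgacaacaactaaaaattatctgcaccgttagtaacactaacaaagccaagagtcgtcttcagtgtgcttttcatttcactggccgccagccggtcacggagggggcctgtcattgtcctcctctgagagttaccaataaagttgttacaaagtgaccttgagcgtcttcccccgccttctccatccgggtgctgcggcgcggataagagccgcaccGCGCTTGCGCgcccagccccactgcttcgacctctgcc
The motif was thus present in promoters of members that moved in either direction.

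Total counts ran from 20156082 to 24331577 per library. The 14 T cell markers summed to between 3161 and 4624 CPM in the 18 libraries, none of them at 0 in any group, and Cd3e averaged 64.7 to 168 CPM by group. Cd4 averaged 2.14 CPM in WTATPgs and 9.33 in WT, 0.514 in ADO and 1.12 in DNT, and 0.413 in RA and 1.47 in R. Cd8a averaged 5.66 CPM in WTATPgs and 11.7 in WT, 16.8 in ADO and 23.5 in DNT, and 6.61 in RA and 6.59 in R. Neither was at 0 in any group. By these means Cd4 was lower with ligand in all 3 sets, and Cd8a in sets 1 and 2 only. Replicate 3 of WTATPgs and replicate 3 of R stood apart from their groups. The 16 myeloid markers summed to 260 and 264 CPM in WTATPgs replicates 1 and 2 and to 62.6 CPM in replicate 3, against 61.2 to 65.4 CPM in WT, and the 10 B cell markers to 97.5, 99.2 and 31.3 CPM in WTATPgs, against 52.9 to 58.9 CPM in WT. The myeloid sum of WTATPgs replicate 3 thus lay within the WT range, and its B cell sum lay below that range. Only as single markers picked from these lists, Cd14, Cd68 and Cd79b were above all WT libraries in it. Cd79b was at 3.01 CPM there, against 1.90 to 2.44 CPM in WT. In set 2 the myeloid sum was 22.5 to 26.6 CPM in ADO and 14.1 to 16.9 CPM in DNT, and in set 3 it was 50.5 to 55.7 CPM in RA and 57.3 to 66.4 CPM in R. The B cell sum was 29.1 to 31.3 CPM in ADO and 34.9 to 39.2 CPM in DNT, and 52.3 to 63.7 CPM in RA and 66.9 to 82.9 CPM in R. Pax5 was at 0 in RA, R and DNT, Cd22 and Blnk in RA and R, and Ms4a1 in RA. A list of 6 noncoding RNAs kept as a sign of RNA quality took 0.148%, 0.149% and 0.118% of counts in WTATPgs, against 0.145% to 0.149% in WT. It took 0.0786% to 0.0945% in ADO, against 0.0689% to 0.0795% in DNT, and 0.0347% to 0.0400% in RA, against 0.0310% to 0.0367% in R. Of its 5 genes tested, 2 fell with ATPgs, and 1 rose and 3 fell with adenosine. Neat1 rose with adenosine by 0.67 ± 0.03, and Gas5 fell by 0.50 ± 0.05 with ATPgs and 0.25 ± 0.03 with adenosine (edgeR adjusted p = 1.16e-22, 0.000134 and 3.47e-10). Of the myeloid markers, Csf3r was at 0 in ADO, DNT, RA and R, and S100a8 and S100a9 in R. The part of such cells or of RNA quality in the results was not tested, and in bulk RNA fewer cells of a type and less RNA per cell cannot be told apart. R replicate 3 had a TMM factor of 0.817, while the other 17 libraries had factors from 0.981 to 1.08.

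The 13 mitochondrially encoded genes took a larger share of all counts in WTATPgs and a slightly smaller share in ADO than in the libraries without ligand. The share was 2.03%, 2.02% and 1.89% in the 3 WTATPgs libraries, against 1.69%, 1.70% and 1.70% in WT. Every WTATPgs library lay above every WT library, replicate 3 being the lowest of the 3. In set 2 the share was 1.59%, 1.54% and 1.54% in ADO, against 1.60%, 1.64% and 1.62% in DNT, and the groups did not overlap, although ADO replicate 1 lay close to DNT replicate 1. In set 3 it was 3.73%, 3.60% and 3.49% in RA, against 3.48%, 2.98% and 5.20% in R, so that RA lay within the range of R.

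The share of the 97 nuclear encoded genes was higher in every ADO than in every DNT library and overlapped between the groups of sets 1 and 3. It was 0.718%, 0.710% and 0.745% in WTATPgs, against 0.744%, 0.729% and 0.728% in WT, and these overlapped. It was 0.789%, 0.790% and 0.797% in ADO, against 0.751%, 0.763% and 0.756% in DNT, with every ADO library higher. In set 3 it was 1.22%, 1.23% and 1.17% in RA, against 1.23%, 1.08% and 1.27% in R. The ratio of mitochondrially to nuclear encoded counts was 2.74 ± 0.18 in WTATPgs and 2.31 ± 0.04 in WT, 1.97 ± 0.04 in ADO and 2.14 ± 0.01 in DNT, and 2.99 ± 0.07 in RA and 3.23 ± 0.74 in R (mean ± SD, n = 3 each). The ratio did not overlap between groups in sets 1 and 2 and did in set 3, where R replicate 3 stood at 4.08. No p is given for these sums, since they are scores over chosen genes. The widest 95% Wilson interval of a single library was 0.0191 percentage points for the mitochondrial and 0.00966 for the nuclear share, counting error only. Sets 1 and 2 had lower shares of both kinds than set 3, whose cells all carried the inhibitor, and set and inhibitor cannot be told apart.

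**Figure D2:**
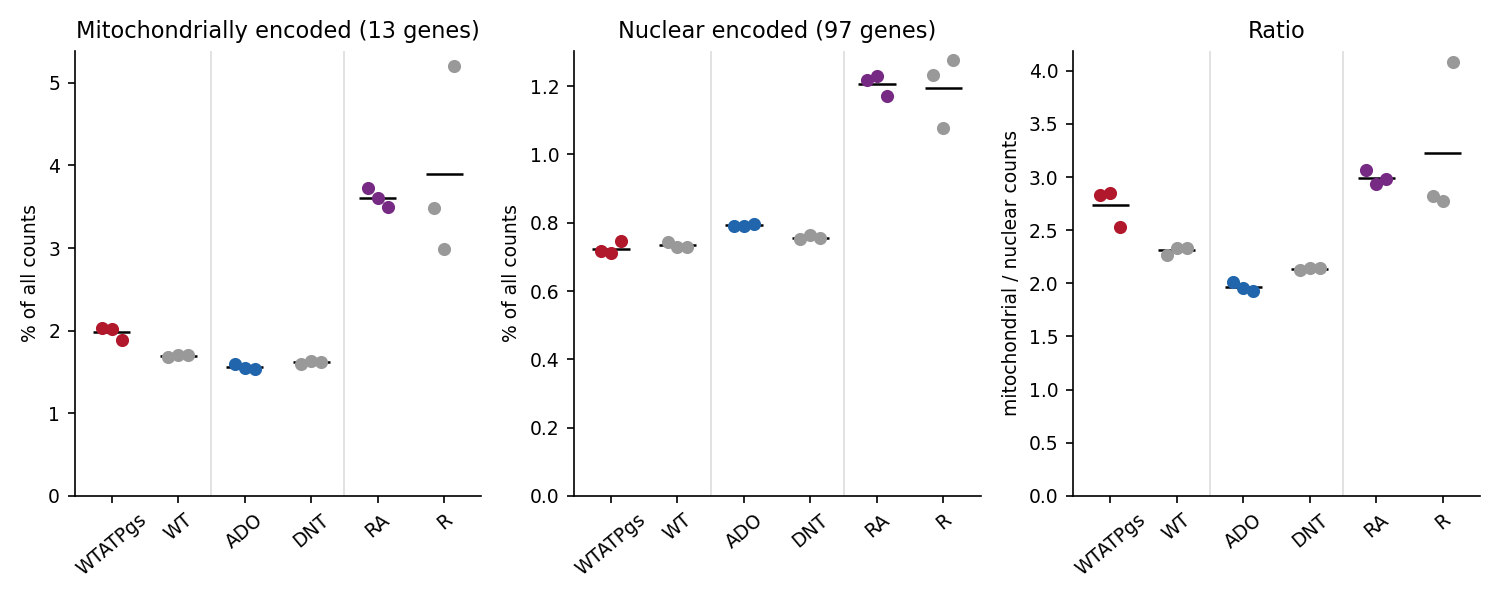
Share of all counts taken by the 13 mitochondrially encoded genes (left) and the 97 nuclear encoded genes (middle), and the ratio of the 2 sums (right), for each library (points) and group (line: mean of 3). The 3 WTATPgs points are above the 3 WT points on the left, the 3 ADO points are above the 3 DNT points in the middle, and R replicate 3 stands at 5.20% on the left.

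mt-Co1 alone, the gene of the catalytic subunit of cytochrome c oxidase, made up about as many counts as the other mitochondrial members together. It was 50.5 ± 0.18% of their counts in WTATPgs and 52.7 ± 0.18% in WT, 51.1 ± 0.11% in ADO and 46.7 ± 0.15% in DNT, and 47.3 ± 0.41% in RA and 48.4 ± 0.73% in R (mean ± SD, n = 3 each). In ADO, mt-Co1 added 0.0403 percentage points to the share of all counts, while mt-Cytb took 0.0401 and mt-Nd5 0.034 points from it. In WTATPgs, mt-Co1 added 0.106 points, mt-Cytb 0.0741, mt-Nd1 0.0363 and mt-Nd4 0.0291.

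With ATPgs, 7 of the 12 mitochondrially encoded members tested rose (edgeR quasi-likelihood test, Benjamini-Hochberg adjusted over all genes, threshold 0.05). Of all 15124 genes tested in this comparison, 17.7% rose and 19.4% fell. None of the 12 fell, also at an unadjusted p under 0.05 and by DESeq2. The median log2 fold change of the 12 was 0.27, against −0.00 for all genes. mt-Atp8, which had 0 to 2 counts in each library of the set, was not tested.

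Of complex I, mt-Nd1 and mt-Nd2 encode proton-pumping core subunits. mt-Nd1 had 2163, 2131 and 2050 CPM in WTATPgs, against 1795, 1827 and 1836 CPM in WT, a log2 fold change of 0.22 ± 0.03 (SE, edgeR adjusted p = 0.000963). mt-Nd2 rose by 0.18 ± 0.03 (edgeR adjusted p = 0.00392), with 1190.3 to 1269.7 CPM in WTATPgs and 1090.5 to 1104 CPM in WT. mt-Nd4, another pump subunit, rose by 0.37 ± 0.04 (edgeR adjusted p = 0.000233). Its 1178, 1171 and 1078 CPM in WTATPgs lay above the 879, 881 and 899 CPM in WT. mt-Nd5 had log2 0.10 ± 0.04 and mt-Nd6 0.07 ± 0.05, and neither passed (edgeR adjusted p = 0.064 and 0.33).

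mt-Cytb, the only subunit of complex III in mitochondrial DNA, had 3310, 3337 and 3060 CPM in WTATPgs, against 2579, 2618 and 2589 CPM in WT (log2 0.32 ± 0.04, edgeR adjusted p = 0.000343). All WTATPgs libraries were higher, replicate 3 the least so. mt-Co1 had 10019.7, 10022.6 and 9459 CPM in WTATPgs, against 9097, 9134 and 9085 CPM in WT. Its log2 fold change was small, 0.11 ± 0.03 (edgeR adjusted p = 0.0218), and without any single library other than WTATPgs replicate 3 it no longer passed (edgeR adjusted p = 0.0532 to 0.0961). mt-Co2, which carries the copper site that takes electrons from cytochrome c, had 40.5, 41.4 and 45.7 CPM in WTATPgs, against 29.3, 29.5 and 29.3 CPM in WT (log2 0.53 ± 0.06, edgeR adjusted p = 0.000272). mt-Atp6, the proton channel subunit of complex V, had 11.7, 13.8 and 9.56 CPM in WTATPgs, against 7.94, 8.66 and 7.74 CPM in WT (log2 0.52 ± 0.14, edgeR adjusted p = 0.0188). Both of these genes lie in the copied stretch. mt-Atp6 did not pass without WT replicate 1, WT replicate 3 or WTATPgs replicate 2 (edgeR adjusted p = 0.0744, 0.0794 and 0.0535). With the counts of the chromosome 1 copies added to the genes, an alternative chosen after the data were seen, 8 of 12 rose, mt-Nd5 being the eighth.

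The ribosomal RNAs of the mitochondrion, which are not members, were also higher. mt-Rnr1 had 533, 526 and 404 CPM in WTATPgs, against 278, 284 and 280 CPM in WT (log2 0.80 ± 0.11, edgeR adjusted p = 0.00205). mt-Rnr2 had 1019, 987 and 786 CPM in WTATPgs, against 624, 620 and 636 CPM in WT (log2 0.57 ± 0.10, edgeR adjusted p = 0.00480). In both, replicate 3 was the lowest WTATPgs library and still above all of WT.

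Of the 93 nuclear encoded members tested with ATPgs, 13 fell and 1 rose. That is 15.1% called, against 37.1% of all genes, and the median log2 fold change was −0.09, against −0.00 for all genes. Without TMM factors, on library size only, 10 fell and 7 rose, while 2331 of all 15124 genes fell and 3226 rose. WTATPgs replicate 3 weighed on this count: without it 47 fell and 4 rose. Of all 15568 genes then tested, 4195 fell and 4186 rose, 53.8% in all. The mitochondrially encoded count without that library was 8 of 12.

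The members that fell were spread over all complexes. In complex I, 3 of 36 fell. They were the accessory subunits Ndufa12 and Ndufb6 and the iron-sulfur subunit Ndufs8. Ndufa12 had 47.7, 42.6 and 43.0 CPM in WTATPgs, against 55.1, 51.2 and 57.7 CPM in WT (log2 −0.30 ± 0.06, edgeR adjusted p = 0.00715). Ndufb6, which overlaps the neighbouring gene Smim27, changed by log2 −0.31 ± 0.07 (edgeR adjusted p = 0.0115), and did not pass without WT replicate 1, WT replicate 3 or WTATPgs replicate 2 (edgeR adjusted p = 0.0514, 0.0548 and 0.0582). The core subunits Ndufs1 and Ndufv1 had log2 fold changes of −0.09 ± 0.05 and −0.09 ± 0.05 and did not pass.

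In complex II, Sdhb, the iron-sulfur subunit of succinate dehydrogenase, had 101, 97.2 and 108 CPM in WTATPgs, against 122, 124 and 121 CPM in WT (log2 −0.26 ± 0.05, edgeR adjusted p = 0.00277). The groups did not overlap. Sdha, the flavoprotein that oxidises succinate, had 175, 180 and 189 CPM in WTATPgs, against 181, 179 and 183 CPM in WT, a log2 fold change of 0.00 ± 0.04. In complex III, the core proteins Uqcrc1 and Uqcrc2 fell by 0.12 ± 0.03 and 0.16 ± 0.05 on the log2 scale (edgeR adjusted p = 0.0278 and 0.0284), and these calls were the least stable. Uqcrc1 did not pass under 11 of 14 alternatives, nor Uqcrc2 under 9 of 14, DESeq2 and library size scaling among them (adjusted p by DESeq2 = 0.0904 for Uqcrc1 and 0.0532 for Uqcrc2). Uqcrfs1, the Rieske protein, had log2 −0.10 ± 0.05.

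In complex IV, 3 of 15 tested fell. Ndufa4, once counted to complex I and now known as a cytochrome c oxidase subunit, had 39.0, 39.3 and 41.5 CPM in WTATPgs, against 49.3, 50.7 and 50.5 CPM in WT (log2 −0.33 ± 0.05, edgeR adjusted p = 0.000999). Cox6c changed by log2 −0.16 ± 0.05 (edgeR adjusted p = 0.0441). Cox6a2, the heart and muscle form of subunit VIa, had 1.43, 0.786 and 0.448 CPM in WTATPgs, against 2.21, 2.76 and 1.59 CPM in WT (log2 −1.30 ± 0.40, edgeR adjusted p = 0.0329), a change that rests on 11 to 60 counts a library. It did not pass without WT replicate 1, WT replicate 2 or WTATPgs replicate 2 (edgeR adjusted p = 0.0969, 0.123 and 0.0972). Cox6a1, the form found in most tissues, had 207, 213 and 203 CPM in WTATPgs, against 222, 196 and 204 CPM in WT, and the groups overlapped. Cox4i1 and Cox5a had log2 fold changes of 0.03 ± 0.04 and −0.01 ± 0.05.

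In complex V, 3 of 16 fell and 1 rose. Atp5g1 and Atp5g3, 2 of the genes for the c subunit that forms the rotating ring, fell by 0.21 ± 0.04 and 0.23 ± 0.03 on the log2 scale (edgeR adjusted p = 0.00513 and 0.0012). Atp5g3 had 173, 168 and 171 CPM in WTATPgs, against 203, 196 and 201 CPM in WT. Atp5j, coupling factor 6, fell by 0.25 ± 0.05 (edgeR adjusted p = 0.00392). Atp5d, the delta subunit of the central stalk, was the 1 nuclear member that rose, with 204, 205 and 212 CPM in WTATPgs, against 178, 169 and 177 CPM in WT (log2 0.24 ± 0.04, edgeR adjusted p = 0.00134). The catalytic Atp5a1 and Atp5b had log2 fold changes of −0.05 ± 0.03 and −0.11 ± 0.04 and did not pass (edgeR adjusted p = 0.243 and 0.0578). Among the 14 factors 1 fell, Ndufaf4, a complex I assembly factor. It had 34.9, 34.6 and 43.7 CPM in WTATPgs, against 56.8, 56.1 and 55.3 CPM in WT (log2 −0.57 ± 0.09, edgeR adjusted p = 0.00159), and replicate 3 was the WTATPgs library nearest to WT. Ndufaf2 had log2 −0.48 ± 0.19 and did not pass (edgeR adjusted p = 0.0863).

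With adenosine, 6 of the 12 mitochondrially encoded members tested fell. Of all 14512 genes tested, 25.5% rose and 24.6% fell. None of the 12 rose after adjustment by edgeR or by DESeq2, and 1 had a higher value at an unadjusted p under 0.05. The median log2 fold change of the 12 was −0.22, against 0.00 for all genes.

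mt-Nd5 and mt-Nd6 had the largest falls of the genes outside the copied stretch. mt-Nd5 had 1557, 1553 and 1551 CPM in ADO, against 1934, 1989 and 1926 CPM in DNT (log2 −0.33 ± 0.02, edgeR adjusted p = 1.8e-23). mt-Nd6, the 1 protein gene on the other strand of the genome, had 230.0, 226 and 223 CPM in ADO, against 274, 298 and 280.0 CPM in DNT (log2 −0.33 ± 0.03, edgeR adjusted p = 3.71e-15). The groups of neither gene overlapped. mt-Cytb had 2406, 2308 and 2339 CPM in ADO, against 2793, 2889 and 2825 CPM in DNT (log2 −0.27 ± 0.02, edgeR adjusted p = 3.04e-20). mt-Nd2 fell by 0.21 ± 0.02 and mt-Nd4 by 0.24 ± 0.04 on the log2 scale (edgeR adjusted p = 1.15e-10 and 0.00291).

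mt-Co1 and mt-Nd1 did not pass with adenosine. mt-Co1 had 8048, 7781 and 7729 CPM in ADO, against 7613, 7775 and 7705 CPM in DNT (log2 0.03 ± 0.01, edgeR adjusted p = 0.0739), and mt-Nd1 had log2 −0.04 ± 0.02 (edgeR adjusted p = 0.113). Without ADO replicate 2 or replicate 3, or on library size only, 1 of the 12 rose. mt-Co2 was called lower, with overlapping groups, at 15.7, 14.3 and 15.5 CPM in ADO and 15.1, 21.0 and 18.5 CPM in DNT (log2 −0.26 ± 0.09, edgeR adjusted p = 0.0163). It did not pass without DNT replicate 2, DNT replicate 3 or ADO replicate 2 (edgeR adjusted p = 0.205, 0.0531 and 0.0935). With the counts of the chromosome 1 copies added, 7 of 12 fell. mt-Rnr1 rose, with 351, 343 and 314 CPM in ADO, against 207, 209 and 207 CPM in DNT (log2 0.69 ± 0.03, edgeR adjusted p = 2.34e-14), and mt-Rnr2 rose by 0.11 ± 0.02 (edgeR adjusted p = 7.08e-05).

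**Figure D3:**
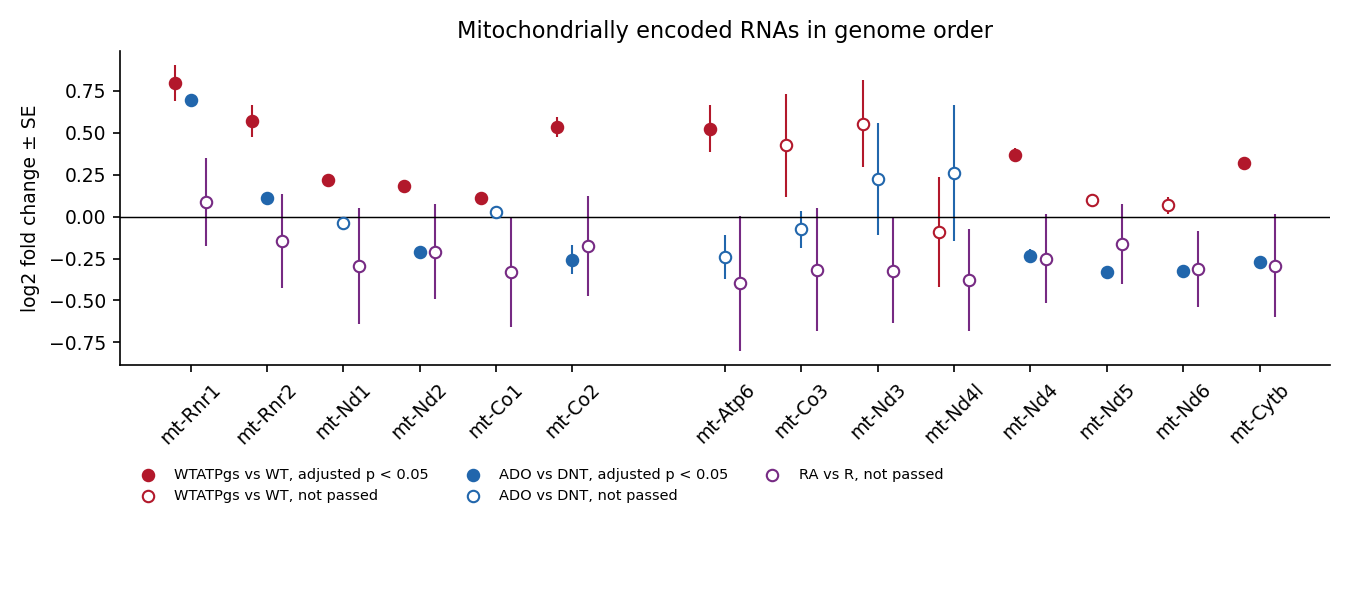
Log2 fold change ± SE (vertical axis) of the mitochondrial ribosomal RNAs and mRNAs in genome order (horizontal axis) for WTATPgs against WT, ADO against DNT and RA against R, filled where the edgeR adjusted p was under 0.05; mt-Atp8 is left out, as it was tested in set 3 only. WTATPgs points lie above 0 except at mt-Nd4l, ADO points are highest at mt-Rnr1 (0.69) and negative from mt-Nd4 to mt-Cytb, and RA points have wide errors.

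Of the 93 nuclear encoded members tested with adenosine, 30 rose and 7 fell. The called share was 39.8%, against 50.2% of all genes, and the median log2 fold change was 0.05, against 0.00 for all genes. On library size only, 43 rose and 4 fell, while 4418 of all 14512 genes rose and 2850 fell. The 30 were 13 of 36 in complex I, 2 of 4 in complex II, 1 of 8 in complex III, 5 of 15 tested in complex IV, 5 of 16 in complex V and 4 of 14 factors. Their changes were small, none over 0.41 on the log2 scale.

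In complex I, Ndufa13 had 85.5, 84.9 and 83.5 CPM in ADO, against 69.7, 69.9 and 64.3 CPM in DNT (log2 0.32 ± 0.04, edgeR adjusted p = 1.21e-09), although 28.5% of its 50-base words occur in other genes, chiefly the overlapping Tssk6. Ndufs1, the largest iron-sulfur subunit, moved the other way, with 77.3, 75.9 and 80.0 CPM in ADO, against 86.6, 86.9 and 88.0 CPM in DNT (log2 −0.17 ± 0.04, edgeR adjusted p = 0.000141). The groups of neither Ndufa13 nor Ndufs1 overlapped. Ndufa11, Ndufa3, Ndufb10 and Ndufv3 rose by 0.24 to 0.27 on the log2 scale, and Ndufv1 had log2 0.07 ± 0.04.

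Complex II was split. Sdha had 240.0, 235 and 238 CPM in ADO, against 224, 223 and 221 CPM in DNT (log2 0.09 ± 0.02, edgeR adjusted p = 0.00119). Sdhd, one of the membrane anchors, had 85.9, 88.8 and 86.8 CPM in ADO, against 75.5, 81.8 and 78.7 CPM in DNT (log2 0.15 ± 0.04, edgeR adjusted p = 0.000686). Sdhb had 117, 117 and 118 CPM in ADO, against 128, 125 and 127 CPM in DNT (log2 −0.11 ± 0.03, edgeR adjusted p = 0.00201). On library size only, Sdhb and the complex III core protein Uqcrc2, which had log2 −0.10 ± 0.03 (edgeR adjusted p = 0.00233), did not pass (edgeR adjusted p = 0.0731 and 0.0891). Uqcrh, the hinge protein, rose by 0.16 ± 0.04 (edgeR adjusted p = 0.00137). Uqcrc1 varied widely within the set, from 58.4 to 80.0 CPM in ADO and from 72.1 to 94.0 CPM in DNT.

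In complex IV, Cox7a2, Cox8a and Cox4i1 rose by 0.21 ± 0.04, 0.13 ± 0.03 and 0.11 ± 0.03 on the log2 scale (edgeR adjusted p = 3.53e-05, 0.000565 and 0.00272). Cox7a2, the form of subunit VIIa found in most tissues, had 62.6, 64.9 and 63.6 CPM in ADO, against 53.7, 56.6 and 55.2 CPM in DNT. Cox6a1, the nuclear member with the highest level per kb in all 6 groups, had 276, 277 and 280.0 CPM in ADO, against 269, 264 and 261 CPM in DNT (log2 0.07 ± 0.02, edgeR adjusted p = 0.0133), and did not pass without DNT replicate 3 (edgeR adjusted p = 0.0724). In complex V, Atp5d rose again, with 226, 225 and 224 CPM in ADO, against 190.3, 200 and 186 CPM in DNT (log2 0.23 ± 0.03, edgeR adjusted p = 2.45e-10). The catalytic beta subunit Atp5b had 1087, 1079.6 and 1090.1 CPM in ADO, against 1180, 1196 and 1185 CPM in DNT (log2 −0.13 ± 0.02, edgeR adjusted p = 3.61e-09), while its partner Atp5a1 had log2 0.01 ± 0.02. Atp5g1 fell by 0.21 ± 0.04 (edgeR adjusted p = 3.39e-06).

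Among the factors, Cox7a2l, which is known for joining complexes III and IV into supercomplexes, had 159, 148 and 149 CPM in ADO, against 128, 128 and 124 CPM in DNT (log2 0.27 ± 0.03, edgeR adjusted p = 1.4e-10). Ndufaf4 had 52.2, 50.1 and 48.9 CPM in ADO, against 61.8, 60.0 and 61.5 CPM in DNT (log2 −0.28 ± 0.04, edgeR adjusted p = 3.53e-07). Every ADO library of Ndufaf4 lay below every DNT library. Ndufaf1 and Ndufaf3, also complex I assembly factors, rose by 0.27 ± 0.06 and 0.37 ± 0.10, and Ndufaf2, which shares 64.1% of its 50-base words with the overlapping B230220B15Rik, had log2 −0.22 ± 0.09 (edgeR adjusted p = 0.000128, 0.00185 and 0.03).

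**Figure D4:**
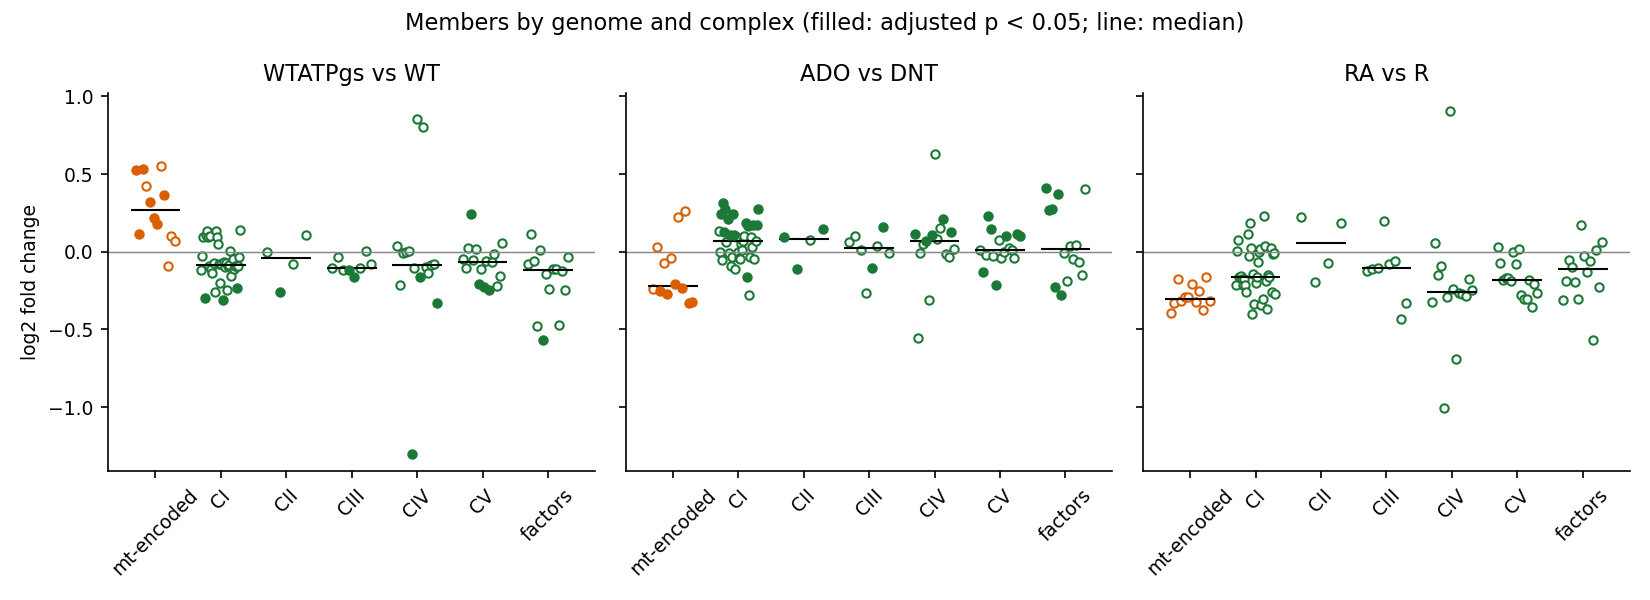
Log2 fold change (vertical axis) of each tested member, by genome and complex (horizontal axis), in the 3 comparisons, filled where the edgeR adjusted p was under 0.05, with the median of each class as a line; mt-Atp8 is left out. The mitochondrially encoded medians are above 0 for WTATPgs and below 0 for ADO and RA, and no RA point is filled.

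The effects of the ligands, each taken against its own set, were set against each other in a fit of 12 libraries. For 8 of the 12 mitochondrially encoded members the ATPgs effect was the higher, against 8.13% of all 15788 genes, and for 15 of 93 nuclear members it was the lower, against 9.12% of all genes. For no mitochondrial member was it the lower and for no nuclear member the higher, by edgeR and DESeq2 and at an unadjusted p under 0.05. The 8 were mt-Nd1, mt-Nd2, mt-Nd4, mt-Nd5, mt-Nd6, mt-Cytb, mt-Co2 and mt-Atp6, and mt-Cytb differed by log2 0.59 ± 0.04 (edgeR adjusted p = 7.02e-08). mt-Co1, at log2 0.09, was not among them. Of the nuclear members Atp5j differed by log2 −0.35 ± 0.06, Ndufa4 by −0.34 ± 0.07 and Cox7a2 by −0.30 ± 0.07 (edgeR adjusted p = 0.000714, 0.0038 and 0.00652). The nuclear count was 40 without WTATPgs replicate 3, 5 without WT replicate 1, 8 without WT replicate 3, WTATPgs replicate 2 or ADO replicate 3, and 9 without DNT replicate 1 or ADO replicate 2, while the mitochondrial count was 8 or 9 without any single library. Without WTATPgs replicate 3, 3058 of all 16248 genes were lower and 2309 higher, 33.0% in all. Without any other single library, 11.9% to 14.0% of all genes were called in either direction. Ligand and set change together in this contrast and cannot be told apart beyond the subtraction of each set's own libraries. Set 1 listed 52550 genes and set 2 listed 53465, and some members differed widely between the untreated groups. Mean CPM in WT and DNT was 66.4 and 6.41 for Ndufs3, 51.2 and 3.43 for Ndufb9, and 185 and 81.3 for Uqcrc1. Whether the counting differed between the sets was not tested.

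By their separate tests, mt-Nd2, mt-Nd4, mt-Cytb and mt-Co2 rose with ATPgs and fell with adenosine. Atp5j was the 1 nuclear member called in opposite directions, and it fell with ATPgs and rose with adenosine, by 0.10 ± 0.03 (edgeR adjusted p = 0.00792). Atp5d rose with both ligands, and Sdhb, Uqcrc2, Atp5g1 and Ndufaf4 fell with both. Of all genes, 37.1% were called with ATPgs and 50.2% with adenosine. The share of all genes with each pair of calls was not counted, so these patterns are not set against a background.

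**Figure D5:**
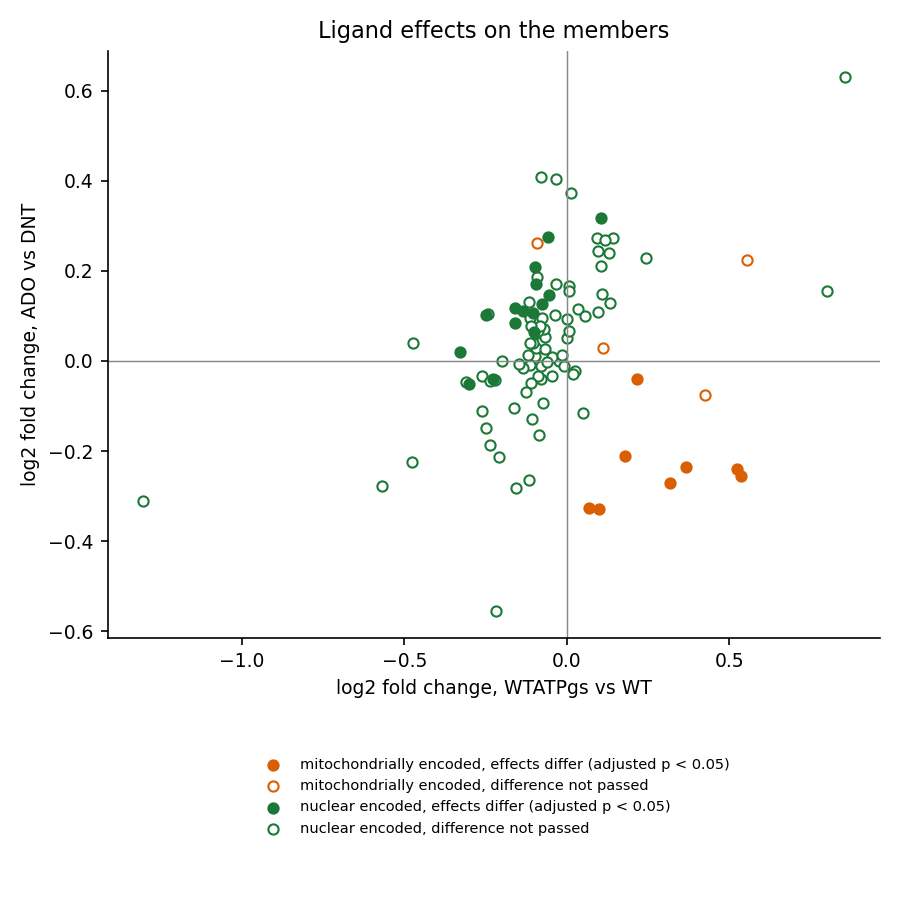
Log2 fold change of each member tested in both sets, WTATPgs against WT (horizontal axis) and ADO against DNT (vertical axis), with mitochondrially and nuclear encoded members in different colours and filled points where the difference of the effects had an edgeR adjusted p under 0.05. The 8 filled mitochondrially encoded points lie right of 0 and below 0.

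With the inhibitor present, no member passed the test between RA and R by edgeR, 0 of 13 mitochondrially and 0 of 91 nuclear encoded, where 1.14% of all 12873 genes were called, 0.287% higher and 0.855% lower. At an unadjusted p under 0.05, 1 mitochondrial and 1 nuclear member were higher and 1 nuclear member lower, and DESeq2 called 1, Cox6a2, lower. The spread between libraries was far larger in this set, with a common biological coefficient of variation of 19.6%, against 10.6% in set 1 and 2.74% in set 2. mt-Co1 had 16874, 16427 and 15644 CPM in RA, against 16984, 13256 and 31380.4 CPM in R (log2 −0.33 ± 0.32, edgeR adjusted p = 0.780). mt-Cytb had 5883, 5673 and 5278 CPM in RA, against 5770, 4467 and 10370.8 CPM in R (log2 −0.29 ± 0.31, edgeR adjusted p = 0.801). The RA libraries of both lay within the range of R, of which replicate 3 set the upper and replicate 2 the lower end. For mt-Co1 they also lay between R replicates 2 and 1.

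R replicate 3 was the highest of the 6 libraries of the set for 11 of 13 mitochondrially and 69 of 91 nuclear encoded members. It was the lowest for 7 nuclear members, Ndufv1, Sdha, Sdhc, Sdhd, Cox6b2, Atp5a1 and Atp5b. Uqcrh had 175, 185 and 172 CPM in RA, against 197, 145 and 377 CPM in R, whereas Atp5b had 1233, 1148 and 1078 CPM in RA, against 1399, 1242 and 991 CPM in R. Cox6a2 was the member nearest the threshold, with 2.998, 2.36 and 2.33 CPM in RA, against 5.72, 3.94 and 5.85 CPM in R (log2 −1.01 ± 0.24, edgeR adjusted p = 0.0845). Its groups did not overlap, and neither did those of Sdha, at 199, 198 and 193 CPM in RA, against 177, 176 and 152 CPM in R (log2 0.22 ± 0.15, edgeR adjusted p = 0.647). mt-Atp8 had 21, 188 and 13 counts in RA, against 7, 12 and 16 in R, and its difference rests on RA replicate 2. Ndufb11, Uqcrq, Atp5l, Atp5s and Sdhaf1, among the smallest p of their classes, had log2 fold changes of −0.40 ± 0.27, −0.33 ± 0.21, −0.36 ± 0.31, −0.31 ± 0.25 and −0.57 ± 0.38 and did not pass.

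Without R replicate 3, no mitochondrial member passed and 5 nuclear members did, while 13.04% of all genes were called. Ndufv2, Uqcrb, Ndufaf2 and Ndufaf5 then rose by 0.50 to 0.55 on the log2 scale (edgeR adjusted p = 0.0271 to 0.0416), and Cox6a2 fell by 0.91 ± 0.23 (edgeR adjusted p = 0.0205). The difference between the adenosine effects with and without the inhibitor passed for 0 of 13 mitochondrially and 0 of 93 nuclear members by edgeR, where 4.06% of all 14918 genes were called, 0.912% higher and 3.14% lower. At an unadjusted p under 0.05, 1 mitochondrial member was higher and 9 nuclear members lower, and DESeq2 called 1, Atp5d, lower. Without R replicate 3 it passed for 5 mitochondrial members, all higher with the inhibitor (mt-Nd2, mt-Nd4, mt-Nd5, mt-Cytb and mt-Co2, log2 0.38 to 0.62), and for 7 nuclear members higher and 1 lower. Of all 15390 genes then tested, 1633 were higher and 1417 lower, 19.8% in all. Without R replicate 2 the difference passed for 11 nuclear members, all lower. Of all 15336 genes then tested, 760 were higher and 722 lower, 9.66% in all. These counts thus turned on single R libraries.

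Several isoforms known from other tissues had few counts or none. Cox8c had 0 counts in all 18 libraries, and Cox7b2 had 3, Cox8b 10 and Ndufa4l2, the form of Ndufa4 induced by hypoxia, 45 counts over all libraries together. None of these 4 passed the filter on low counts in any set, and they are the 4 nuclear members not tested in sets 1 and 2. Cox4i2, the lung form of subunit IV, had 1 to 18 counts a library. Cox7a1, the heart and muscle form of subunit VIIa, had 13 to 101 and Cox6b2, the testis form of subunit VIb, 10 to 57 counts a library. The thin mitochondrial members mt-Nd3 and mt-Nd4l had 12 to 119 and 9 to 212 counts a library and passed in no comparison.

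Nuclear genes that serve the same pathway outside the members were counted from lists. The counts of each list here and below stand beside these shares of all genes tested. With ATPgs 17.7% rose and 19.4% fell, and with adenosine 25.5% rose and 24.6% fell. Of 77 mitochondrial ribosomal proteins tested, 36 fell with ATPgs, and 9 rose and 18 fell with adenosine. Mrps2 fell with both, by 0.43 ± 0.05 with ATPgs and 0.26 ± 0.04 with adenosine (edgeR adjusted p = 0.000271 and 1.2e-07), and Mrpl49 rose with adenosine by 0.44 ± 0.06 (edgeR adjusted p = 1.94e-09). Of 27 genes for mitochondrial DNA upkeep, transcription and RNA processing, 19 fell and 2 rose with ATPgs, and 16 fell and 3 rose with adenosine. The median log2 fold changes were −0.26 with ATPgs and −0.20 with adenosine. Top1mt, the mitochondrial topoisomerase, had 12.2, 10.9 and 11.03 CPM in WTATPgs, against 18.6, 18.1 and 19.0 CPM in WT (log2 −0.71 ± 0.08, edgeR adjusted p = 0.000269). Pnpt1, an RNA-degrading enzyme, fell by 0.36 ± 0.04 with ATPgs (edgeR adjusted p = 0.000347). Lrpprc, which stabilises mitochondrial mRNAs, had 132, 131 and 141 CPM in ADO, against 169, 170 and 169 CPM in DNT (log2 −0.33 ± 0.03, edgeR adjusted p = 8.3e-14). Elac2, which trims tRNA ends from the precursors, fell by 0.35 ± 0.03 with adenosine (edgeR adjusted p = 3.01e-15).

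Of 15 regulators of mitochondrial biogenesis tested, 5 rose and 4 fell with ATPgs, and 4 rose and 6 fell with adenosine. Pprc1, a coactivator of respiratory genes, had 153, 144 and 149 CPM in WTATPgs, against 218, 221 and 224 CPM in WT (log2 −0.57 ± 0.04, edgeR adjusted p = 1.48e-05). In set 2 it had 221, 224 and 212 CPM in ADO, against 295, 300.3 and 288 CPM in DNT (log2 −0.43 ± 0.02, edgeR adjusted p = 2.73e-20). Myc, a growth factor-induced transcription factor, had 463, 465 and 451 CPM in ADO, against 679, 672 and 671 CPM in DNT (log2 −0.55 ± 0.02, edgeR adjusted p = 3.98e-29). Within each set given, every library with ligand lay below every library without it.

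Of 19 genes for electron carriers and coenzyme Q, 3 rose and 9 fell with ATPgs, and 5 rose and 5 fell with adenosine. Coq8a, a kinase-like protein of coenzyme Q synthesis, had 28.5, 29.7 and 29.0 CPM in WTATPgs, against 10.2, 9.72 and 10.3 CPM in WT (log2 1.53 ± 0.07, edgeR adjusted p = 1.98e-06). It had 32.9, 32.7 and 32.9 CPM in ADO, against 13.8, 14.6 and 13.6 CPM in DNT (log2 1.23 ± 0.07, edgeR adjusted p = 1.31e-21). Its adenosine effect was lower with the inhibitor, by log2 −1.02 ± 0.16 (edgeR adjusted p = 0.00381), a difference that no member of the oxidative phosphorylation set passed. Etfdh, which feeds electrons from fatty acid oxidation to coenzyme Q, rose by 0.63 ± 0.05 with ATPgs (edgeR adjusted p = 4.13e-05). Of 20 genes of the citrate cycle and pyruvate dehydrogenase, 1 rose and 9 fell with ATPgs and 2 rose and 7 fell with adenosine, Dlst falling by 0.23 ± 0.04 and 0.15 ± 0.03 (edgeR adjusted p = 0.00224 and 3.51e-06). In set 3 Pcx, pyruvate carboxylase, was the only gene of these lists called between RA and R by edgeR (log2 −1.03 ± 0.19, edgeR adjusted p = 0.0345).

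Of a list of other assembly factors, which also holds Cox7a2l, 2 of 37 rose and 8 fell with ATPgs, and 8 of 36 rose and 7 fell with adenosine, Sco1, a copper chaperone of complex IV, falling by 0.51 ± 0.05 with adenosine (edgeR adjusted p = 1.52e-11). Of 16 genes for nucleotide transport, import and chaperones, 10 fell with ATPgs, and 4 rose and 10 fell with adenosine. Slc25a5, an ADP and ATP carrier, had 441, 448 and 473 CPM in WTATPgs, against 581, 585 and 579 CPM in WT (log2 −0.36 ± 0.04, edgeR adjusted p = 0.000154), and Hspa9, the chaperone that drives import, had 535, 532 and 551 CPM in ADO, against 729, 725 and 735 CPM in DNT (log2 −0.44 ± 0.02, edgeR adjusted p = 3.05e-25). Of cytosolic ribosomal protein genes, 63 of 82 were lower and 0 higher with ATPgs, and 31 of 83 were lower and 4 higher with adenosine. They took 4.93% of counts in WTATPgs, against 5.32% in WT, and 5.48% in ADO, against 5.43% in DNT. The share in ADO was thus not lower, although more of these genes were called lower than higher after TMM scaling.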

How the data were processed

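RNA was extracted with Trizol, and libraries followed standard Illumina preparation, per the labels. The deposited files are 3 tables of raw counts per Ensembl gene, which the authors made from reads aligned with HISAT2 2.1.0 to GRCm38, per the submitters' processing notes. The counting tool, the annotation release, the strandedness and the handling of reads with several possible origins are each not given in the sources used here. Symbols and coordinates came from GENCODE M21 and promoters from RefSeq (GRCm38.p6). Depth ran from 20156082 to 24331577 counts per library.

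The test was the two-sided quasi-likelihood F test of edgeR 4.0.16 (R 4.3.3), with robust estimation, TMM scaling and its default expression filter by group. P-values were adjusted by Benjamini-Hochberg over all genes tested, with a threshold of 0.05. Each ligand was tested in a fit of the 6 libraries of each set, and of 12 libraries for differences between effects. An exact permutation test of 3 against 3 libraries cannot go below p = 0.1. CPM values were scaled by TMM factors within a set. The SE is the log2 fold change divided by the square root of F. Reads shared with other genes were judged from 50-base words of annotated transcripts. The scripts were tested on simulated data. Figures used Python 3.11.15.

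Members, lists, tests and the rule for names were chosen with earlier results of these data known. Named were all mitochondrially encoded members, in each comparison the 2 nuclear members of each class with the smallest p, and a panel of subunits and isoforms. From each list the 2 genes with the smallest p were eligible, and only some of these are given. A panel gene and a marker are not reported here. Other called members, and those given for R replicate 3, were named after their values were seen. Alternatives were RLE factors, library size only, scaling without mitochondrially encoded genes, no filter, at least 1 CPM in 3 libraries, DESeq2 1.42.0, a replicate block, leaving out each library, other totals for the shares, and adding the chromosome 1 copies, chosen after the data were seen.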

Additional observations from a re-analysis of the deposited data

Results flagged for a closer look

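For 23 members the effects of ATPgs and adenosine, each measured within its set, differed in the fit of 12 libraries (edgeR quasi-likelihood test, adjusted over all 15788 genes, of which 17.3% were called). The differences below are log2 values of the ATPgs effect minus the adenosine effect. Of the mitochondrially encoded members, mt-Nd1 differed by 0.26, mt-Nd2 by 0.39, mt-Nd4 by 0.61, mt-Nd5 by 0.43, mt-Nd6 by 0.40, mt-Cytb by 0.59, mt-Co2 by 0.80 and mt-Atp6 by 0.77. Of these, mt-Co2 and mt-Atp6 lie in the stretch copied on chromosome 1, and so do the first 876 bases of mt-Nd4.

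Of the nuclear encoded members of complex I, Ndufa12 differed by −0.24, Ndufa13 by −0.21, Ndufa8 by −0.24 and Ndufs7 by −0.26. Uqcr10 of complex III differed by −0.16. In complex IV, Cox6b1 differed by −0.20, Cox6c by −0.24, Cox7a2 by −0.30, Cox8a by −0.20 and Ndufa4 by −0.34. In complex V, Atp5e differed by −0.19, Atp5g3 by −0.18, Atp5j by −0.35 and Atp5mpl by −0.27, and the assembly factor Ndufaf1 differed by −0.33. The part of the set, of the depth or of other cells in these differences was not tested.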

How the results depend on the processing

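Of 41 single calls for named members and mitochondrial genes, 31 passed under every alternative run, 10 did not under at least 1, and none changed direction. The named members include those with the smallest p of each class, chosen from these data. Other called members, such as Ndufs8 and Cox6c with ATPgs, were not among the 41, so the 31 do not describe all calls. On library size only, nuclear members higher with ATPgs were 7 in place of 1, nuclear members lower with adenosine 4 in place of 7, and mitochondrially encoded members higher with adenosine 1 in place of 0. Of all genes, 3226 in place of 2678 were then higher with ATPgs. With adenosine, 4418 in place of 3707 genes were higher and 2850 in place of 3574 lower. In set 3 that scaling moved the median of all genes to log2 0.09, from −0.04 with TMM factors. Nuclear members higher with ATPgs were 2 both without a filter and at 1 CPM in 3 libraries. Of all genes, 2829 of 29395 and 2666 of 13119 were higher in these runs. Without a filter, 1 mitochondrially encoded member was higher and 1 nuclear member lower between RA and R, with 2.04% of all genes called. DESeq2 called 1 nuclear member lower there, with 4.14% of all genes called. It called 1 nuclear member lower in the difference with minus without inhibitor, with 10.3% of all genes called. With cytosolic ribosomal protein genes left out of the total, the nuclear share differed by −0.00536 percentage points (RA minus R), against 0.0116 with all counts.

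Leaving out each library in turn gave, for ATPgs, 1 to 4 nuclear members higher and 7 to 47 lower, for adenosine 0 to 1 mitochondrially encoded members higher, and for RA against R 0 to 4 nuclear members higher and 0 to 1 lower. It gave 5 to 40 nuclear members lower for ATPgs minus adenosine. For the difference with minus without inhibitor it gave 0 to 5 mitochondrially encoded members higher, and 0 to 7 nuclear members higher and 0 to 11 lower. The RA minus R share ran from −0.735 to 0.375 percentage points for mitochondrially encoded members, positive without R replicate 3, and from −0.0474 to 0.0517 for nuclear ones. The cause was not tested.

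Replicate numbers gave no visible pairing, as same-numbered libraries correlated between −0.205 and 0.0517 in their deviations from the group means. With 3 libraries per group, these values cannot tell whether same-numbered libraries shared a mouse, culture or batch. With a replicate block, 6 mitochondrially encoded members were higher and 12 nuclear members lower with ATPgs, where 31.7% of all genes were called. With adenosine, 7 mitochondrially encoded and 7 nuclear members were lower and 29 nuclear members higher, where 51.0% of all genes were called. For ATPgs minus adenosine, 11 nuclear members were lower, where 14.0% of all genes were called.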
